A study of Mus musculus with 6 samples.

Results

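Apolipoproteins and lipoprotein assembly genes were examined in liver RNA of mice with and without Nrg4, the gene of neuregulin 4, a secreted ErbB ligand enriched in brown fat. The set holds Apoa1, Apoa2, Apoa4, Apoa5, Apob, Apoc1, Apoc2, Apoc3, Apoe and Mttp, chosen by name and found through every probe set paired with one of these symbols alone. All 10 genes had a probe set, 12 in all, of 17097 genes and 28898 probe sets with 1 symbol. Where a gene had several probe sets, the one with the highest mean over the 6 arrays stood for it. Both groups were labelled C57BL/6 and had been on a high-fat diet, begun at an age of 3 months, for 8 weeks when liver was taken in the random-fed state. The wild-type group had 3 arrays and the Nrg4 knockout group 3, each array read from a separate pool of liver RNA. The sources used here do not say how many animals made a pool, of which sex, or how the knockout was made. The p-values thus measure the spread between pools.

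Apolipoproteins are the protein coats of the particles that carry lipids in blood. In liver, Mttp (microsomal triglyceride transfer protein) loads lipid onto Apob, the structural protein of VLDL and LDL, while smaller exchangeable apolipoproteins join and leave the particles and govern lipases and receptors. Apoa1, Apoc3, Apoa4 and Apoa5 lie side by side on chromosome 9, and Apoe, Apoc1 and Apoc2 form another cluster on chromosome 7.

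The 5' flanks of Apoa4, Apoa1 and Apoa5 are shown because these chromosome 9 neighbours had unlike changes. That of Apob is shown because Apob had the lowest change. Each stretch is the 250 bases before a RefSeq transcript start in GRCm38.p6, read 5' to 3' on the strand of the gene. They are reference sequence of C57BL/6J, not of the mice studied. Capitals mark matches to 4 motifs, searched on both strands and able to overlap. The TATA box was searched as TATAAA and the nuclear receptor half-site as AGGTCA. The HNF4-type site was searched as CAAAGNNCA and the cyclic AMP response half-site as TGACGT. The positions are chr9:46240594-46240843 (+) for Apoa4, chr9:46228380-46228629 (+) for Apoa1, chr9:46268358-46268607 (+) for Apoa5 and chr12:7977427-7977676 (+) for Apob.
Apoa4: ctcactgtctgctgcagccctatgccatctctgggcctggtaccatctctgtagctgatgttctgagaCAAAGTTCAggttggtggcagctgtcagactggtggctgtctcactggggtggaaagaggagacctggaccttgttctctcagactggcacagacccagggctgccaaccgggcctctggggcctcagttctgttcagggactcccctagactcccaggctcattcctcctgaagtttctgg
Apoa1: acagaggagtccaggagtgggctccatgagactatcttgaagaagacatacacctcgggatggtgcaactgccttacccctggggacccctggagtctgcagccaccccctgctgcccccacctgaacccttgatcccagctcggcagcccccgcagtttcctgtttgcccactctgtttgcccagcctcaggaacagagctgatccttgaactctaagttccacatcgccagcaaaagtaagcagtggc
Apoa5: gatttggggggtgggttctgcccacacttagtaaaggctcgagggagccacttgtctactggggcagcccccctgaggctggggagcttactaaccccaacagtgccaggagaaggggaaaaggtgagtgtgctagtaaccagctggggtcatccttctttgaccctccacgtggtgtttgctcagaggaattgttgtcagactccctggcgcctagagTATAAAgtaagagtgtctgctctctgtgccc
Apob: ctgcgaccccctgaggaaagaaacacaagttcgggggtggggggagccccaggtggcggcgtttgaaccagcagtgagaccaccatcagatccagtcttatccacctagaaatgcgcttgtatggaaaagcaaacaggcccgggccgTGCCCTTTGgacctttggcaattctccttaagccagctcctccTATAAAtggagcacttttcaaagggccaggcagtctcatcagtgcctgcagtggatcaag

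The Apoa4 flank held 1 match, CAAAGTTCA, from 182 to 174 bases before the start. The Apoa1 flank held no match to the 4 motifs. The Apoa5 flank held TATAAA from 31 to 26 bases before the start. The Apob flank held TATAAA from 60 to 55 bases before the start and the HNF4-type letters on the other strand from 103 to 95 bases before it. Of 27025 promoters of the same length, 1 per gene, 5.5% held CAAAGNNCA, 13.0% TATAAA, 13.8% AGGTCA and 6.6% TGACGT. Among the other members in the table, Apoc2 held AGGTCA, Apoa2 held TATAAA and Mttp held TGACGT, and Apoe held none of these. The reference used held no promoter of Apoc3 or Apoc1, so neither was searched. A match is only a run of letters, and no binding was measured.

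As a check of the labels, Nrg4 fell by 2.30 on the log2 scale (SE 0.10, limma adjusted p = 4.76e-05), from 4.84 ± 0.09 to 2.54 ± 0.11 (SD, n = 3). Over all genes, 5 of 12466 passed limma's test with an adjusted p below 0.05 (0.0401%), of which 2 rose (0.0160%) and 3 fell (0.0241%), and the median log2 change was 0.045. The hepatocyte markers Alb, Ttr, Serpina1c, Fgb, Apoh, Hp, Cps1 and Cyp2e1 had mean signals of 11.78 to 11.79 in the wild-type arrays and 11.74 to 11.83 in the knockout arrays. These signals were near the top of the arrays' range, whose highest values were 12.50 to 12.53, and a loss of response there was not tested. The 18S ribosomal RNA controls separated the genotypes, with array means of 7.83 to 8.19 in wild type and 6.01 to 6.68 in the knockout. For the Actb and Gapdh controls, signal at the 5' end less that at the 3' end averaged -1.31 for knockout replicate 1 and -0.96 to -0.65 for the other arrays. The 18S signal ran with genotype in every array, so its part in the changes below cannot be told apart from that of the genotype.

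Of the 10 members, all of which were above the limit for dim signal, 1 passed the test over all genes. Apoa4 rose 3.44-fold, while Apoa1, Apoc3 and Apoa5 beside it differed by less than 0.10 on the log2 scale. Apob, at 2.23-fold lower, and Apoc2, at 1.30-fold higher, had the next lowest p-values and did not pass. At an unadjusted limma p under 0.05, 2 members were higher (Apoa4 and Apoc2) and 1 was lower (Apob), where 7.36% of all genes were higher and 2.18% lower. The other members lay between -0.19 and 0.12. The median over the members was 0.09, with 7 values higher and 3 lower. Of all 12466 genes tested, 7905 had a higher value and 4561 a lower one. Genotypes were fully separated in 5 members that were higher (Apoa4, Apoa2, Apoc1, Apoc2 and Apoe) and in 1 that was lower (Apob). Over all genes, 11.7% had no overlap and were higher in the knockout, and 3.92% had no overlap and were lower.

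**Figure D1:**
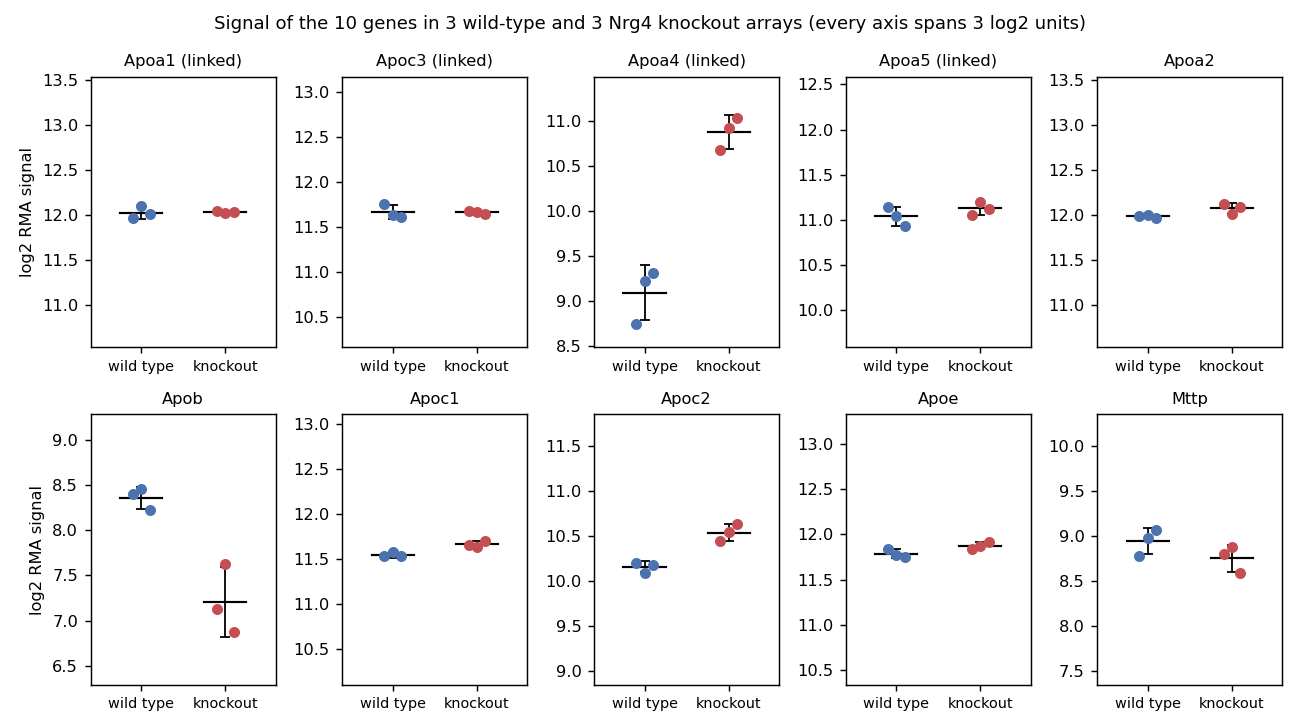
Log2 signal of the 10 members, 1 panel a gene, with 1 point an array (3 wild-type, 3 knockout), a bar at the mean and a whisker of 1 SD. Every axis spans 3 log2 units. Apoa4 is higher in all 3 knockout arrays, Apob is lower in all 3, and Apoc2 is higher by a smaller step.

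Apoa4, an apolipoprotein of chylomicrons and VLDL, was the member that passed. Wild-type arrays gave log2 signals of 8.75, 9.22 and 9.31, and knockout arrays gave 10.67, 10.92 and 11.03. The lowest knockout array lay far above the highest wild-type array, and wild-type replicate 1 was the lowest of all. The mean rose from 9.09 ± 0.30 to 10.88 ± 0.18 (SD, n = 3), a log2 change of 1.78 (SE 0.16, 95% interval 1.42 to 2.15, limma adjusted p = 0.0141). Only Cyp2b9, of the 12466 genes tested, had a larger rise (2.58), and it did not pass (limma adjusted p = 0.290). With any single array left out, the change in Apoa4 lay between 1.61 and 1.89. It missed the threshold without wild-type replicate 2 (limma adjusted p = 0.0641), knockout replicate 2 (0.0721) or knockout replicate 3 (0.111). With the 5' to 3' signal as a covariate it was 1.78 (limma adjusted p = 0.0144). With the 18S signal as a covariate, a fit chosen after seeing the data, it was 2.09 (SE 0.64). Neither Apoa4 nor any other gene passed in that fit. Apoa4 is also a major product of the gut. The enterocyte markers Vil1, Cdh17, Alpi and Slc5a1 were below the limit for dim signal, with means of 2.03 to 2.46 in the 2 genotypes. Fabp2 had means of 9.91 (wild type) and 10.01 (knockout), and Lgals4 had 6.11 and 5.96. The whole list of 8 measured enterocyte markers, dim ones included, had array means of 3.83 to 3.89 in wild type and 3.82 to 3.95 in the knockout. A part of gut RNA in the Apoa4 value was not tested.

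The remaining members of the chromosome 9 cluster showed no such step. Apoa1, the main protein of HDL, read 11.97, 12.11 and 12.01 in wild type and 12.05, 12.03 and 12.03 in the knockout. The ranges overlapped fully, and the log2 change was 0.0079 (SE 0.08, 95% interval -0.18 to 0.20). A further probe set of Apoa1 gave -0.03 (SE 0.08). Apoc3, an inhibitor of lipoprotein lipase and of remnant uptake, read 11.75, 11.63 and 11.61 against 11.68, 11.66 and 11.65, a log2 change of -0.0012 (SE 0.08, 95% interval -0.19 to 0.19). Its knockout values all lay inside the wild-type range. Apoa5, which aids lipoprotein lipase, read 11.14, 11.04 and 10.93 in wild type and 11.06, 11.20 and 11.12 in the knockout. Its log2 change was 0.09 (SE 0.09, 95% interval -0.12 to 0.30), and the groups overlapped. The sign of the Apoa1 and Apoc3 changes turned under other scalings, as values this close to 0 can. The signals of these genes were near the top of the arrays' range, whose highest values were 12.50 to 12.53. A loss of response to further RNA at such signals was not tested.

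Within each array, Apoa4 was set against its cluster partners, taking the wild-type mean of the difference as 0. Apoa4 minus Apoa1 was 1.56, 1.83 and 1.94 for the knockout and -0.29, 0.05 and 0.23 for wild type. Against Apoc3 the knockout values were 1.57, 1.83 and 1.96, and against Apoa5 they were 1.56, 1.67 and 1.85. Since the partners changed little, these gaps mostly restate the rise of Apoa4 in each knockout array.

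**Figure D2:**
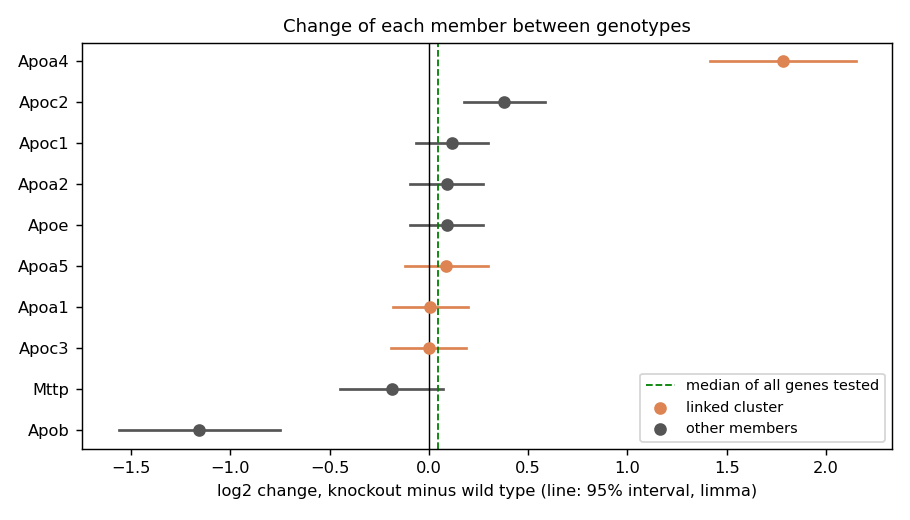
Log2 change of each member, knockout minus wild type (point), with its 95% interval from limma (line), for the chromosome 9 cluster (orange) and the other members (grey). The dashed line is the median of all genes tested, 0.045. Intervals of Apoa4, Apoc2 and Apob lie apart from 0, before any adjustment for the number of genes.

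The structural protein Apob had the lowest change of the set. It read 8.40, 8.46 and 8.23 in wild type and 7.13, 7.63 and 6.87 in the knockout. Every knockout array lay below every wild-type array, with a wider spread in the knockout. The mean went from 8.36 ± 0.12 to 7.21 ± 0.39 (SD, n = 3), a log2 change of -1.16 (SE 0.18, 95% interval -1.56 to -0.75). This missed the threshold over all genes (limma adjusted p = 0.0778), where 30 genes (0.241%) passed at adjusted p under 0.10. It passed without knockout replicate 2 (log2 change -1.37, limma adjusted p = 0.0454), with a variance trend (0.0273) and with array weights (0.0413). Without any other single array it missed the threshold (limma adjusted p of 0.101 to 0.311). The log2 change was -0.99 without knockout replicate 3. A single probe set stood for Apob. The sources used here do not say where its probes lie on the long Apob transcript, and probe sets without a gene name, of which some may also read Apob, were not analysed here. The value therefore rests on this probe set alone. With the 5' to 3' covariate the change was -1.16 (limma adjusted p = 0.0785). With the 18S signal as a covariate, a fit chosen after seeing the data, it was 0.12 with an SE of 0.54, so that its direction was not fixed by that fit.

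Mttp, the transfer protein that lipidates Apob, did not pass. Its brighter probe set read 8.78, 8.98 and 9.06 in wild type and 8.80, 8.87 and 8.58 in the knockout. The ranges overlapped, with a log2 change of -0.19 (SE 0.11, 95% interval -0.45 to 0.07, limma adjusted p = 0.631). Without knockout replicate 3 it was -0.10. The other probe set gave -0.25 (SE 0.12), with values of 7.73, 7.96 and 7.85 against 7.76, 7.63 and 7.39. Taken within each array, Apob minus Mttp had a change of -0.97, knockout minus wild type. Around the wild-type mean, knockout arrays stood at -1.10, -0.67 and -1.14 and wild-type arrays at 0.20, 0.06 and -0.26.

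No gene of the chromosome 7 cluster passed, and of its members Apoc2 had the largest change. Apoc2, the cofactor that lipoprotein lipase needs, read 10.21, 10.09 and 10.19 in wild type and 10.45, 10.55 and 10.63 in the knockout. Its groups did not overlap, and the log2 change was 0.38 (SE 0.09, 95% interval 0.18 to 0.58, limma adjusted p = 0.239). Over its alternatives the adjusted p lay between 0.0501 and 1.00. Apoc1, an exchangeable apolipoprotein of VLDL and HDL, read 11.53, 11.58 and 11.53 against 11.66, 11.63 and 11.71 (log2 change 0.12, SE 0.08). Apoe, the ligand through which receptors clear remnants, read 11.84, 11.78 and 11.74 against 11.84, 11.87 and 11.91 (log2 change 0.09, SE 0.08). Its groups were separated only in the third decimal. The changes of Apoc1 and Apoe were within an SE of the median of all genes. Signals of both were near the top of the arrays' range, and a loss of response there was not tested. Apoc2 minus Apoe within each array, around the wild-type mean, was 0.23, 0.30 and 0.34 for knockout arrays and -0.0077, -0.06 and 0.07 for wild-type arrays. Apoc4, which lies in the same cluster and was named after its values were seen, had a log2 change of -0.05 (SE 0.13).

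Apoe is made by macrophages as well as hepatocytes. Of 12 markers of macrophages and Kupffer cells, all 12 had a higher group mean in knockout than in wild type. Array means of the list were 5.87 to 6.07 in wild type and 5.95, 6.57 and 6.63 in knockout replicates 1, 2 and 3. Knockout replicate 1 thus lay inside the wild-type range. None of the 12 markers passed limma's test over all genes. At an unadjusted p under 0.05, 5 were higher (7.36% of all genes), and 3 were fully separated (11.7% of all genes). Their part in the Apoe value was not tested. Endothelial markers had array means of 5.92 to 6.21 against 5.55 to 5.91. Of 10 tested, 8 were higher, 4 of them at an unadjusted p under 0.05 and 3 fully separated. Stellate cell and matrix markers had 5.43 to 5.61 against 5.14 to 5.29. All 9 tested were higher, 5 of them at an unadjusted p under 0.05 and 5 fully separated. None in either list passed limma's test. Adipocyte markers had 3.84 to 3.93 against 3.77 to 4.12. In such bulk RNA, more cells of a type and more RNA per cell cannot be told apart.

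Apoa2, the second protein of HDL, lies apart from both clusters. It read 11.99, 12.00 and 11.97 in wild type and 12.13, 12.01 and 12.09 in the knockout, with a log2 change of 0.09 (SE 0.08, 95% interval -0.10 to 0.27). The groups were separated by a margin of less than 0.01, smaller than the SD within either group, and the signal was near the top of the range.

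The chromosome 9 cluster was then set against the other 6 members as wholes. Per array, the mean of the 4 linked genes minus the mean of the others was higher in the knockout by 0.58. The knockout arrays stood at 0.54, 0.54 and 0.67 and the wild-type arrays at -0.05, 0.03 and 0.02 around their mean. This gap was carried by 1 gene on each side. Without Apoa4 it was 0.14, and without Apob among the others it was 0.37, both chosen after seeing the data. The median log2 change was 0.05 for the linked genes and 0.09 for the other members, beside 0.045 for all genes, so the medians did not order the clusters as the means did.

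Genes flanking the chromosome 9 cluster were read in RefSeq order. Within 1 Mb of it, 45 genes were annotated, 17 had a probe set with 1 symbol and 11 were above the limit for dim signal. Of these, 4 had a higher and 7 a lower value, with a median of -0.04. None passed limma's test, and 2 had an unadjusted p under 0.05, both lower, beside 2.18% of all genes. The genotypes were separated in 3, all lower (Cep164, Sik3 and Dscaml1), beside 3.92% of all genes. Cep164, a centriole protein, stood at -0.57 (limma adjusted p = 0.314) and Sik3, a kinase next to Apoa1, at -0.29 (limma adjusted p = 0.453). The mean of the 3 probe sets of Cep164 gave only -0.11. Dscaml1 stood at -0.19, Bace1 at -0.11, Pcsk7 at -0.10 and 4931429L15Rik at 0.04. Bace1 lay between -0.04 and -0.17 and Pcsk7 between -0.01 and -0.23 over runs without one array, and the most variable probe set of Bace1 gave -0.32. The sign of Dscaml1 turned with other probe sets, and that of 4931429L15Rik with quantile normalization. Zpr1, next to Apoa5 and named for its place, stood at 0.03 (SE 0.15). The nearest tested genes on either side of Apoa4 thus had changes of -0.0012 and 0.09, and the highest of the 11 neighbours was Bud13 at 0.08. Nrg4 lies on the same chromosome, under 9 Mb from the cluster.

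**Figure D3:**
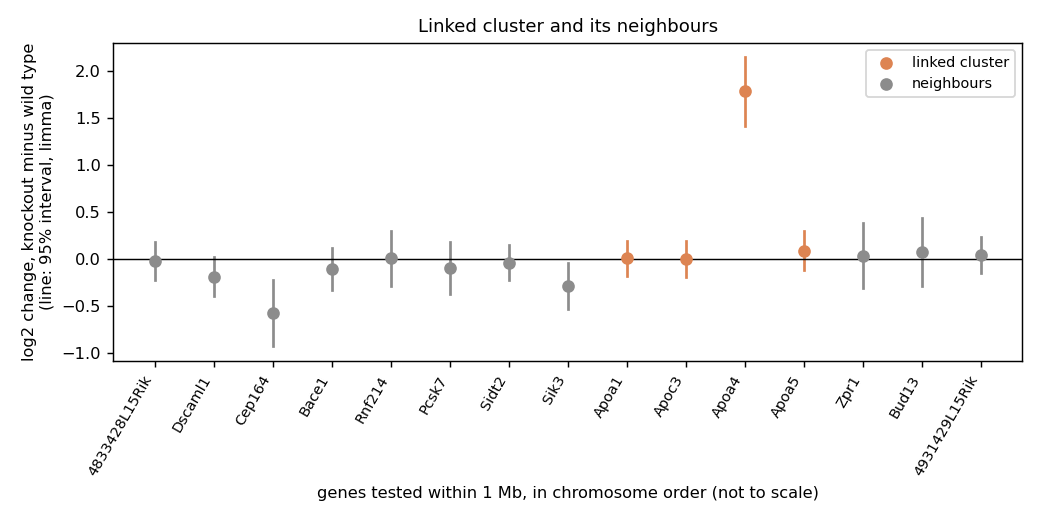
Log2 change of the 4 linked members (orange) and the 11 tested neighbours within 1 Mb (grey), in chromosome order and not to scale, with 95% intervals from limma. Apoa4 stands alone at 1.78, and the neighbours lie between -0.57 and 0.08.

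Other genes of lipoprotein handling were described from 5 lists. Beside the counts below, 7.36% of all genes were higher and 2.18% lower at an unadjusted p under 0.05. By value alone, 7905 of the 12466 genes tested were higher and 4561 lower. Among other apolipoproteins, 13 of 15 were tested, 6 had a higher and 7 a lower value, none passed and 1 had an unadjusted p under 0.05. The median was -0.05. Saa4, a serum amyloid A of HDL, stood at 0.25, Apoo at 0.20 and Apol7a at -0.20. The most variable probe set of Saa4 gave 0.49. Apol7a was -0.10 by the mean of its probe sets, -0.13 without wild-type replicate 1 and -0.31 without wild-type replicate 3. Among assembly and secretion partners, 29 of 32 were tested, 13 had a higher and 16 a lower value, none passed and 2 had an unadjusted p under 0.05. Their median was -0.0030. Ces1g, a carboxylesterase, stood at 0.31, Sar1a, a GTPase of vesicles leaving the endoplasmic reticulum, at 0.25 and Mia2, a cargo receptor at the same exit sites, at -0.49. For Sar1a the mean of its probe sets gave 0.12 and the most variable one -0.01. Mia2 was close to the limit for dim signal and stood at -0.78 without wild-type replicate 3.

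Lipases and factors of plasma remodelling had 11 of 14 tested, 4 measured higher and 7 lower and a median of -0.02. Lpl, lipoprotein lipase, read 6.01, 6.14 and 5.77 in wild type and 6.54, 6.80 and 7.21 in the knockout. The groups did not overlap, and the log2 change was 0.88 (SE 0.17, limma adjusted p = 0.157). For Lpl the mean of its probe sets gave 0.68. Its change was 0.70 without knockout replicate 3 and 1.03 without knockout replicate 1. Gpihbp1, which anchors that enzyme to capillary endothelium, stood at 0.33 and Lipg, endothelial lipase, at -0.39. Gpihbp1 was 0.20 without wild-type replicate 3, and the mean of the Lipg probe sets gave -0.21. None of the list passed, and 3 had an unadjusted p under 0.05, 2 higher and 1 lower. Lpl is also expressed by macrophages, whose markers are given above, and their part was not tested.

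Lipoprotein receptors and uptake factors had 10 of 14 tested, 8 measured higher and 2 lower and a median of 0.09. Sorl1, a sorting receptor, read 4.45, 3.73 and 4.34 in wild type and 5.12, 5.35 and 5.22 in the knockout. Its log2 change was 1.05 (SE 0.18, limma adjusted p = 0.107) and the groups did not overlap. The mean of its probe sets gave 0.58, and with array weights Sorl1 passed (1.25, limma adjusted p = 0.0455). Stab2, a scavenger receptor of sinusoidal endothelium, stood at 0.29 and Scarb1, the HDL receptor, at 0.23. Stab2 was 0.18 without wild-type replicate 3 and 0.17 without knockout replicate 3. Scarb1 was 0.13 without knockout replicate 3 and 0.37 without knockout replicate 1. None passed without array weights at the 0.05 threshold, and Sorl1 alone in the list had an unadjusted p under 0.05.

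Transcription regulators of apolipoprotein genes had 23 of 30 tested, 11 measured higher and 12 lower and a median of -0.01. None passed, and 3 had an unadjusted p under 0.05, 2 higher and 1 lower. Esrrg, an orphan nuclear receptor, read 4.65, 4.48 and 4.46 in wild type and 3.93, 3.54 and 3.95 in the knockout, a log2 change of -0.72 (SE 0.13, limma adjusted p = 0.126). With array weights it passed (-0.73, limma adjusted p = 0.0486), while the mean of its probe sets gave -0.49 (limma adjusted p = 0.168). Foxa3 stood at 0.36, with 0.24 without wild-type replicate 1 and 0.54 without wild-type replicate 3. Ppara stood at 0.34, but the mean of its probe sets gave -0.05 and its most variable one -0.35. Named after their values were seen, Hnf4a, a regulator of many liver apolipoprotein genes, stood at -0.02 (SE 0.08) and Creb3l3, a regulator of Apoa4, at 0.11 (SE 0.11).

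**Figure D4:**
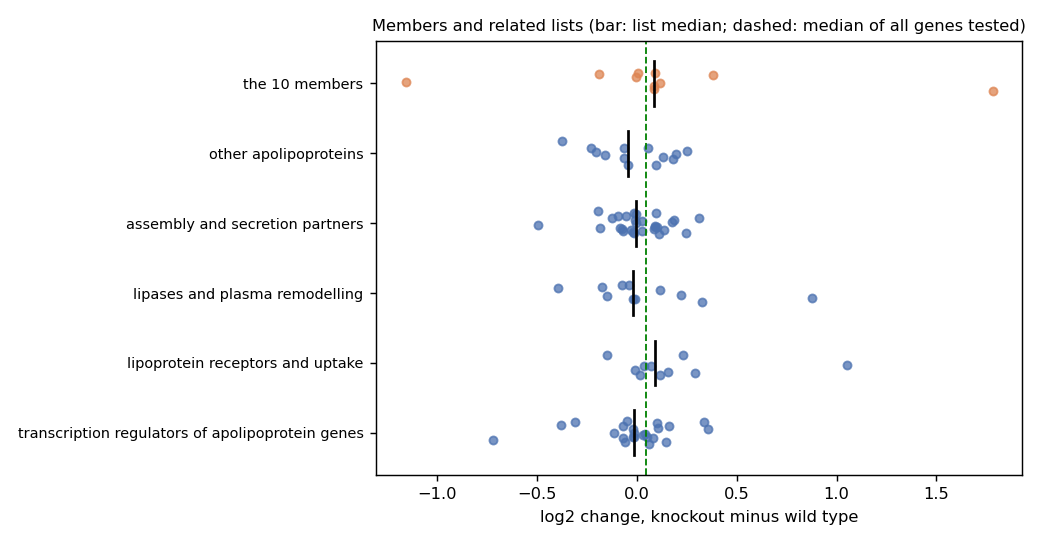
Log2 change, knockout minus wild type, of each of the 10 members (orange) and of each tested gene of the 5 related lists (blue), with the median of each list (bar) and of all genes tested (dashed line, 0.045). Apoa4 at 1.78 and Apob at -1.16 are the highest and lowest points plotted.

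The genes whose signal followed Apoa4 most closely over the 6 arrays were Btrc (Pearson r = 0.994), Cd36 (0.990), Cdca4 (0.988), Pip4k2a (0.986) and Suclg2 (0.983). Their log2 changes were 0.24, 0.74, 0.58, 0.45 and 0.25, and none passed over all genes. Since the arrays fall into 2 genotypes, these coefficients mostly restate a difference between genotypes, and they are given as a description.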

How the data were processed

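Per the labels, 250 ng of Trizol-extracted liver total RNA went into a 3' IVT kit for each Affymetrix MG-430 PM array. The deposited table holds log2 RMA values, made with affy, RMA and limma per the submitters' processing notes; the sources used here give no versions. RMA subtracts background, equalises the arrays' distributions and summarises probes. Of 45141 probe sets, 104 were controls, and probe sets with several symbols (551) or without one were not tested. A gene counted as dim, and was not tested, when its mean lay below log2 2.66, the 40th percentile over probe sets.

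The genotypes were compared with limma 3.58.1 in R 4.3.3 (lmFit, eBayes, two-sided), adjusted by Benjamini-Hochberg over 12466 genes at 0.05, and checked on simulated data. Intervals are 95% and unadjusted. Named genes were all members, the 3 smallest p of each list, the 6 smallest p near the cluster and the 5 highest r with a called member. Members, lists and motifs were chosen with earlier results of these data known. Alternatives covered normalization, filter, variance model, array weights, probe set rule, left-out arrays, replicate block, RNA quality and threshold. Gene order and promoters came from RefSeq (GRCm38.p6), and 8 of 10 members had a promoter. Figures used matplotlib 3.10.9. The number of arrays limits the precision.

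Same-numbered wild-type and knockout arrays had correlations of deviations of -0.15, 0.03 and -0.0090, so the numbers were not taken to pair them.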

Additional observations from a re-analysis of the deposited data

How the results depend on the processing

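Over 19 alternatives Apoa4 was higher in all and passed in 15, with log2 changes of 1.61 to 2.09. The filters, variance models, probe set rules, replicate block and looser threshold could not move this change, which stayed at 1.78. Apoa4 has only 1 probe set, and the looser threshold repeats the main fit. Of 584 single-gene values, 554 kept direction and side of the threshold. The total of genes called, 5, became 8 with repeated quantile normalization or the probe set of highest variance, 3 with the filter at the 60th percentile or the mean of all probe sets, 29 with a variance trend, 50 with array weights, 12 with the 5' to 3' covariate and 30 at adjusted p under 0.10. It ranged from 1 to 19 over runs without one array (19 without knockout replicate 1), and the members called from 0 to 1. Apoa4 and Apob made 2 members called with a variance trend, with array weights and at adjusted p under 0.10. With the replicate block 2 genes passed, and Apoa4 was still the 1 member called; no other member's call changed. Array weights also brought Sorl1 and Esrrg past the threshold. With the 18S covariate, added after seeing the data, 0 genes and 0 members passed limma's test (293 genes at an unadjusted p under 0.05), and the median SE went from 0.11 to 0.41 since the 18S signal separates the genotypes in every array. There Apoa4 stood at 2.09 (SE 0.64), Apoa2 at -0.037, Apob at 0.12, Apoe at -0.10 and Mttp at 0.64. The linked minus other gap of 0.58 moved to 0.14 without Apoa4 and to 0.37 without Apob, and lay between 0.54 and 0.60 over runs without one array. Signs turned for values near 0. They also turned for values further from 0, namely Apob and Mttp with the 18S covariate, and Ppara, Sar1a and Dscaml1 with other probe sets. Apoa1 gave -0.0092 with quantile normalization, -0.0056 with median centring, -0.024 with array weights and -0.012 when probe sets were averaged, and lay between -0.022 and 0.046 without one array. Apoc3 gave 0.0013 with quantile normalization, 0.0023 with array weights, and -0.030 to 0.042 without one array. 4931429L15Rik gave -0.0015 with quantile normalization. With the mean of all probe sets Ppara gave -0.048 and Dscaml1 0.031. With the probe set of highest variance Sar1a gave -0.011, Ppara -0.35 and Dscaml1 0.13. The count of neighbours called was 0 under every alternative run.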
